A study of Mus musculus with 2 samples.

Results

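The genes described here are 10 that set the thiol redox state of a cell: Nfe2l2, Txn1, Txnrd1, Txnip, Prdx1, Gpx1, Gpx4, Gclc, Gclm and Hmox1. They were chosen by gene symbol for their place in the glutathione and thioredoxin systems, without reference to a threshold on their values, and all 10 were found among the 55536 genes of the deposited gene tables. The RNA was polyadenylated RNA of activated regulatory T cells, a CD4+ lineage defined by Foxp3 that keeps other lymphocytes in check. They came from 1 male mouse, 4 months old, of the strain Foxp3CreERT2 x Rosa26YFP. By the usual meaning of these names, a tamoxifen-inducible Cre recombinase is expressed from the Foxp3 locus and a yellow fluorescent reporter sits at the Rosa26 locus. The labels give bone marrow haematopoietic cells as the origin and name no tissue of isolation. Sorting, stimulus and any tamoxifen dosing were likewise not given in the sources used here.

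Both samples are technical libraries of the same biological sample, called library 1 and library 2 after their technical replicate numbers, and they form 1 group with no control or second condition. They hold 15076048 and 14635787 estimated gene reads. Levels are in TPM, a deposited unit that scales libraries to 1 total and divides reads by transcript length so that genes can be compared with each other. Every ± is an SD over these 2 libraries (n = 2), and every p-value compares the libraries by counting error, not animals or conditions. All 8 regulatory T cell markers were above 1 TPM in both libraries, with Foxp3 at 23.8 and 20.9 TPM, Il2ra at 236 and 242 TPM and Ctla4 at 215 and 249 TPM. The summed level of the 8 was 5036 and 5256 TPM, of which Trac, at 2729 and 2761 TPM, and Cd3e, at 598 and 698 TPM, are shared by other T cells. The sums for other cell types, over lists of other sizes, were 11.4 and 15.6 TPM for 2 cytotoxic T cell markers, 1.93 and 2.17 TPM for 4 B cell markers and 4.60 and 6.25 TPM for 9 macrophage and monocyte markers. In bulk RNA, fewer cells of a type and less RNA per cell cannot be told apart.

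Cells keep protein thiols reduced by parallel electron chains fed by NADPH. In one, thioredoxin reductase reduces thioredoxin, which in turn reduces peroxiredoxins and other disulfide proteins, while the arrestin-like protein TXNIP binds and inhibits thioredoxin. In the other, the tripeptide glutathione, whose first and rate-limiting step of synthesis is made by glutamate-cysteine ligase, supplies glutathione peroxidases. The transcription factor NRF2, encoded by Nfe2l2, is held low by KEAP1 and raises many of these genes when electrophiles or oxidants modify KEAP1. In activated T cells these systems buffer the peroxide that accompanies signalling and metabolic growth.

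The chemistry of 5 of the members rests on a few codons. Those of Txn1 and Prdx1 are shown as the reactive cysteines of the thioredoxin chain, and those of the 3 selenoproteins because the transcript results below turn on which transcripts carry them. In Txn1 the capitals mark the codons of the Cys-Gly-Pro-Cys active site, found as the in-frame pattern TGNGGNCCNTGN from codon 32 of 106 codons, stop included (mm10, chr4:57951800-57951853, minus strand). In Prdx1 the capitals mark the in-frame pattern TTNGTNTGNCCN from codon 50 of 200, which holds the peroxidatic cysteine (chr4:116691796-116691849, plus strand). In Txnrd1, Gpx1 and Gpx4 they mark an in-frame TGA, a stop codon in other messages that is read here as selenocysteine. It is codon 498 of 500 in the transcript Txnrd1-201 (chr10:82896016-82896045, plus strand), codon 47 of 202 in Gpx1-201 (chr9:108339430-108339474, plus strand) and codon 73 of 198 in Gpx4-202 (chr10:80054716-80054760, plus strand). All 5 stretches are coding exon sequence from GENCODE M21 transcripts, written 5′ to 3′ along the coding strand.
Txn1: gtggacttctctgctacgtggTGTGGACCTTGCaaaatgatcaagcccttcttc
Prdx1: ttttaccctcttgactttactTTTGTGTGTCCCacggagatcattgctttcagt
Txnrd1: gacatcctccagtctggctgcTGAggttaa
Gpx1: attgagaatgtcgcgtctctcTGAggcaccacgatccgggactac
Gpx4: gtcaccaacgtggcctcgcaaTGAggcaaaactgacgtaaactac
In Txnrd1 the TGA stands directly before the last sense codon and the stop, at the far end of the protein, whereas in both peroxidases it lies within the body of the frame.

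The letters TGACNNNGC, the core of the antioxidant response element that NRF2 binds with small MAF proteins, were searched on both strands of the 300 bases from 250 before to 50 after each start in the RefSeq promoters (GRCm38.p6). Of 32851 promoters, 4071 held the letters (12.4%). Entries were matched for 8 members, with 13 promoters, and 4 members had a match in 1 promoter each. Those 4 are shown because they are the members whose start regions carry the letters, in capitals, 5′ to 3′ along the strand of the match. The strand was minus in each, and the places are chr2:75704885-75704913 for Nfe2l2, chr10:82859104-82859132 for Txnrd1, chr4:116685456-116685484 for Prdx1 and chr3:122245413-122245441 for Gclm.
Nfe2l2: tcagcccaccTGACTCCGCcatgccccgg
Txnrd1: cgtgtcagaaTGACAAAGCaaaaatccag
Prdx1: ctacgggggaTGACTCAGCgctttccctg
Gclm: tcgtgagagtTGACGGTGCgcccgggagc
The middle of the match was at -235, -87, -128 and -129 bases from the start, in the same order. A match is a description of the letters, not a site shown to be bound, and no binding data were analysed here. Txn1, Txnip, Gpx1 and Gpx4 had entries and no match in these windows.

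All 10 genes were expressed, here meaning 1 TPM or more in both libraries as for 46.2% of all 22028 protein-coding genes, but over a 212-fold range of mean level. The order was Prdx1, Gpx1, Gpx4, Txnip, Txn1, Nfe2l2, Txnrd1, Gclc, Gclm and Hmox1. The peroxide-removing enzymes, thioredoxin and its inhibitor were the 5 that reached 100 TPM in both libraries, a level met by 5.25% of protein-coding genes. Nfe2l2 and Txnrd1 brought the number at 10 TPM or more to 7, against 29.5% of protein-coding genes. Both subunits of glutamate-cysteine ligase and heme oxygenase 1 were the 3 under 10 TPM in both. The median of the 10171 expressed protein-coding genes was 18.1 TPM, and 7 members lay above it.

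**Figure D1:**
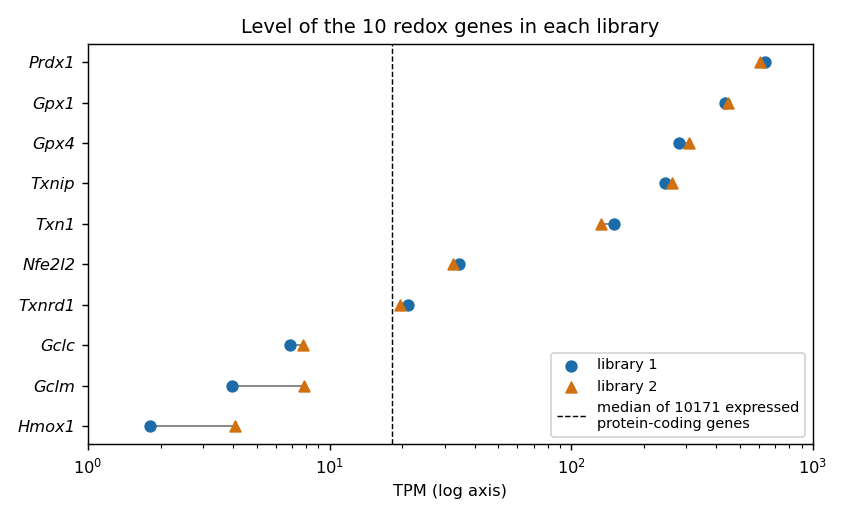
Level of each of the 10 genes in TPM on a log axis, 1 point per library, with the median of expressed protein-coding genes as a dashed line at 18.1 TPM. Prdx1 was highest at 635 and 605 TPM and Hmox1 lowest at 1.80 and 4.05 TPM, and the points of Gclm and Hmox1 lie visibly apart.

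Neighbours in this order were said to differ where their library ranges did not overlap and the gap between their means exceeded the sum of their SDs. By that measure 7 of the 9 neighbouring pairs differed. Gclc and Gclm did not, since their means were 1.42 TPM apart with SDs summing to 3.37 TPM. Gclm and Hmox1 did not either, at 2.96 TPM apart with SDs summing to 4.36 TPM. When reads were instead divided by the union of a gene's exons, Gpx1 stood first at 203 and 202 depth-scaled reads per kilobase and Prdx1 next at 163 and 150, Gpx4 stood below Txnip and Txn1 at 99.0 and 105, and Gclm stood below Hmox1. On both scales the 5 abundant genes ranked first, then Nfe2l2 and Txnrd1, then the 3 scarce ones. Per kilobase of exons, however, the step from Txnrd1 to Gclc was small, with means of 7.33 and 5.23.

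Nfe2l2, the NRF2 gene (ENSMUSG00000015839.6, chr2:75675513-75704641, minus strand), stood at 34.5 TPM in library 1 and 32.6 TPM in library 2 (33.5 ± 1.34), within the highest 33.3% of expressed protein-coding genes. The level was slightly lower in library 2. The ratio of library 2 to library 1, in reads scaled to library totals, was 0.915 with a 95% exact interval of 0.836 to 1.00, and it did not pass the test (adjusted p = 0.157 by a binomial test, exact and two-sided, with p-values adjusted by the Benjamini-Hochberg method over all genes tested). Keap1, which presents NRF2 for degradation, was at 12.7 and 14.3 TPM, so that Nfe2l2 exceeded it 2.71-fold and 2.28-fold (2.49 ± 0.304). Its close relative Nfe2l1 was at 0.415 ± 0.0224 of the Nfe2l2 level, and Nfe2l3 was at 0.520 ± 0.354 TPM.

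In the thioredoxin chain, the inhibitor was more abundant than thioredoxin, and thioredoxin more abundant than its reductase. Txn1, cytosolic thioredoxin (ENSMUSG00000028367.5, chr4:57943373-57956411, minus strand), was at 151 TPM in library 1 and 133 TPM in library 2 (142 ± 12.5). The higher value was in library 1, from 1878 reads against 1564. Its ratio of 0.858 (95% exact interval 0.802 to 0.918) passed the exact binomial test, with an adjusted p of 0.000116. Allowing a dispersion of 0.01 between libraries in edgeR ended the call (adjusted p = 0.864), as did the whole-number table described below (adjusted p = 0.414, exact binomial test).

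Txnrd1, the cytosolic reductase that spends NADPH to reduce thioredoxin (ENSMUSG00000020250.10, chr10:82833951-82897712, plus strand), was at 21.1 TPM in library 1 and 19.5 TPM in library 2 (20.3 ± 1.19). Thioredoxin message thus stood 7.15-fold and 6.85-fold above that of its reductase (7.00 ± 0.208). Txnrd1 was slightly lower in library 2, and its ratio of 0.898 did not pass the exact binomial test (adjusted p = 0.115). Per kilobase of exons the excess of Txn1 over Txnrd1 was larger, at 15.3-fold and 14.7-fold, while in whole-number counts, with no division by length, it was 2.22-fold and 2.04-fold. The mitochondrial pair was present as well, with Txn2 at 165 ± 0.608 TPM and Txnrd2 at 12.2 ± 0.0919 TPM. Txn1 was at 0.861 ± 0.0728 of Txn2 in TPM but at 3.02 and 2.64 times Txn2 per kilobase of exons, so the order of the cytosolic and mitochondrial thioredoxins depended on the length used.

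Txnip, whose protein blocks the active-site cysteines of thioredoxin and also lowers glucose uptake (ENSMUSG00000038393.14, chr3:96557957-96561883, plus strand), was at 246 TPM in library 1 and 262 TPM in library 2 (254 ± 10.9). With 7141 and 6909 reads, its ratio of 0.997 had a 95% exact interval of 0.964 to 1.03, so the libraries were close to equal. The inhibitor exceeded its target Txn1 by 1.63-fold and 1.96-fold in TPM (1.80 ± 0.235), and it was also above Txn1 per kilobase of exons, by 1.28-fold and 1.49-fold. The labels do not state strandedness, and 15.7% of the 50-base windows of Txnip transcripts are shared with the antisense gene Gm15441, to which 23.62 and 11.99 reads were assigned. Of the other alpha-arrestins, Arrdc1 was at 153 ± 12.3 TPM, and Arrdc4, the closest relative, was at 1.62 and 3.55 TPM, between 152-fold and 73.7-fold below Txnip. MondoA and its partner, the sugar-sensing activators of Txnip, were present as Mlxip at 11.8 ± 0.955 TPM and Mlx at 42.6 ± 4.84 TPM, and Mlxipl, the liver-type counterpart, was at 0 and 0.140 TPM.

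Prdx1, a thioredoxin-dependent peroxiredoxin of the cytosol (ENSMUSG00000028691.12, chr4:116685544-116700822, plus strand), was the highest member, at 635 TPM in library 1 and 605 TPM in library 2 (620 ± 21.2). This placed it within the highest 1.79% of expressed protein-coding genes. It was lower in library 2 by a small margin, with a ratio of 0.922 (95% exact interval 0.892 to 0.953) that passed the exact binomial test (adjusted p = 2.31e-05). The call was lost in edgeR at a dispersion of 0.01 (adjusted p = 0.988), and in whole-number counts the direction turned, with a log2 ratio of 0.03 (adjusted p = 0.959, exact binomial test). Prdx1 message was 4.37 ± 0.237 times that of Txn1 and 2.79 ± 0.134 times that of Prdx2 in TPM. The excess over Txn1 was smaller per kilobase of exons, at 1.38-fold and 1.48-fold, and in whole-number counts, at 1.07-fold and 1.19-fold. In the whole-number counts Prdx1 was at 0.884 and 0.985 of Prdx2.

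Gpx1, the abundant glutathione peroxidase of cytosol and mitochondria (ENSMUSG00000063856.7, chr9:108338903-108340343, plus strand), was at 433 TPM in library 1 and 447 TPM in library 2 (440 ± 9.81). The libraries did not separate, since the ratio was 0.999 with a 95% exact interval of 0.958 to 1.04. Gpx4, which reduces lipid hydroperoxides in membranes and so holds back ferroptosis (ENSMUSG00000075706.10, chr10:80047166-80056439, plus strand), was at 280 TPM in library 1 and 309 TPM in library 2 (294 ± 20.6). Library 2 was the higher, and the ratio of 1.06 (95% exact interval 1.00 to 1.12) did not pass the exact binomial test (adjusted p = 0.142). Gpx4 shared 34.7% of its 50-base windows with other genes, chiefly the transcribed pseudogene Gpx4-ps2, which was assigned 468.66 and 401.04 reads, or 18.2% and 15.2% of the Gpx4 estimate. Gpx4 and this copy together had 3042 and 3040 reads. Gpx1 exceeded Gpx4 1.55-fold and 1.45-fold in TPM, and it did so on every scale tried, by 2.05-fold and 1.94-fold per kilobase of exons and by 5.65-fold and 4.91-fold in whole-number counts.

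Glutamate-cysteine ligase is made of a catalytic subunit, Gclc, and a modifier subunit, Gclm, that raises its affinity for glutamate and eases feedback inhibition by glutathione. Gclc (ENSMUSG00000032350.9, chr9:77754535-77794485, plus strand) was at 6.88 TPM in library 1 and 7.73 TPM in library 2 (7.30 ± 0.601), from 288 and 297 reads. The libraries did not separate by the exact binomial test, with a ratio of 1.06, a 95% exact interval of 0.900 to 1.25 and an adjusted p of 0.699. In the whole-number table, with 82 and 126 counts, the log2 ratio was 0.62 and passed the exact binomial test there (adjusted p = 0.0335).

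Gclm (ENSMUSG00000028124.15, chr3:122245557-122270732, plus strand) was at 3.93 TPM in library 1 and 7.85 TPM in library 2 (5.89 ± 2.77), from 84 and 157 reads. Library 2 was higher by 1.93-fold (95% exact interval 1.47 to 2.54, adjusted p = 1.78e-05, exact binomial test). Over the alternatives the adjusted p ran from 1.60e-05 with DESeq2 size factors to 0.0469 in whole-number counts, and it was 0.0427 with edgeR at a dispersion of 0.01, so the call held under each of the 5. The ratio of catalytic to modifier message was therefore 1.75 in library 1 and 0.985 in library 2 (1.37 ± 0.542), on opposite sides of parity. Per kilobase of exons it was 5.73 and 3.16, and in whole-number counts 4.82 and 3.23, so Gclc was the higher in both libraries on those scales. Gclm has 1 long transcript of 5589 bases and several short ones, and the division of its reads among them sets the length used for TPM.

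Hmox1, the inducible enzyme that opens the heme ring and a classical NRF2 target that BACH1 represses (ENSMUSG00000005413.8, chr8:75093621-75100589, plus strand), was the lowest member. It was at 1.80 TPM in library 1 and 4.05 TPM in library 2 (2.92 ± 1.59), from 33 and 72 reads. Library 2 was higher by 2.25-fold, with a wide 95% exact interval of 1.47 to 3.50 (adjusted p = 0.000998, exact binomial test). In the whole-number table, with 20 and 37 counts, the log2 ratio of 0.87 did not pass the exact binomial test (adjusted p = 0.169), while edgeR at a dispersion of 0.01 kept the call (adjusted p = 0.0474). The constitutive enzyme Hmox2 was at 87.4 ± 5.81 TPM, 50.8-fold above Hmox1 in library 1 and 20.6-fold in library 2.

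Macrophages express Hmox1 strongly, so their markers are given beside it. Of 9 such markers only Cd68 was above 1 TPM in both libraries, at 2.49 and 2.57 TPM, and Cd14 and Vsig4 had no reads in either. The summed level was 4.60 TPM in library 1 and 6.25 TPM in library 2. Lyz2 at 0.610 and 2.83 TPM, Csf1r at 0.0400 and 0.320 TPM and Adgre1 at 0 and 0.0800 TPM were higher in library 2. Csf1r rested on only 2.25 and 11.85 reads. Itgam at 0.710 and 0.450 TPM, C1qa at 0.730 and 0 TPM and Cd163 at 0.0200 and 0 TPM were lower in library 2. Lyz2 and Csf1r passed the exact binomial test (adjusted p = 8.59e-05 and 0.0465). Itgam and Cd68 did not (adjusted p = 0.353 and 0.924, exact binomial test), and Adgre1, C1qa and Cd163 had too few reads to be tested. The markers that passed were thus higher in library 2, and those lower in library 2 did not pass or were not tested. Of 6 erythroid markers 3 were above 1 TPM in both, with a sum of 18.1 and 17.2 TPM. The part of such cells in the Hmox1 and Gclm differences was not tested.

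Set side by side, 4 of the 10 genes passed the exact binomial test between the libraries, Txn1 and Prdx1 higher in library 1 and Gclm and Hmox1 higher in library 2. Of all 17271 genes tested, 24.3% passed, 12.7% of them higher in library 2 and 11.6% higher in library 1, each as a share of genes tested. Counting tests pass more often on deep genes, and the share was 39.5% among genes of 1000 or more summed reads, where 7 members fall and 2 passed, and 22.7% among genes of 100 to under 1000, where 3 fall and 2 passed. The median log2 ratio was 0.00 over the members and -0.01 over all genes tested, and the median absolute log2 ratio was 0.12 against 0.23. A ratio of 2 or more either way was seen in 1.67% of the 5701 genes with 100 to under 1000 summed reads, and Hmox1 was past that size and Gclm just under it. With edgeR at a dispersion of 0.01, 2.85% of all genes passed, and Gclm and Hmox1 were the members among them.

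**Figure D2:**
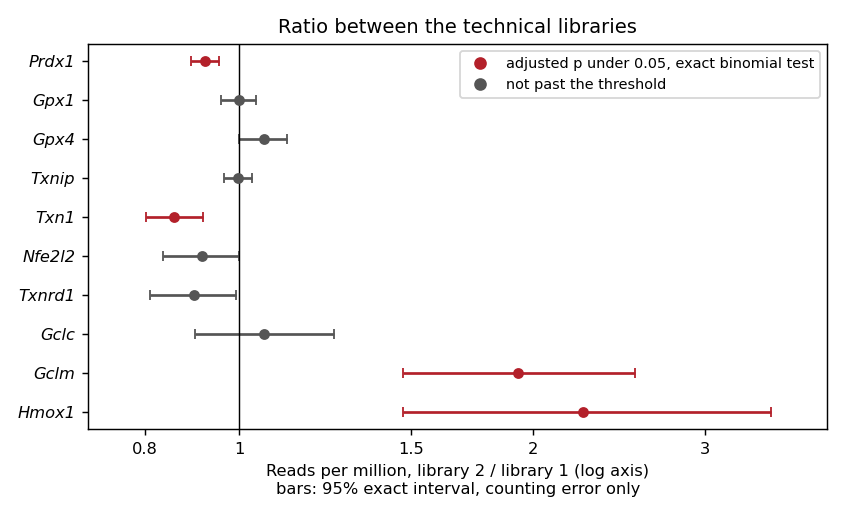
Ratio of library 2 to library 1 in reads scaled to library totals for each of the 10 genes on a log axis, with 95% exact intervals for counting error and the genes past an adjusted p of 0.05 in red. Gclm at 1.93 and Hmox1 at 2.25 stand to the right of the others, which lie between 0.858 and 1.06.

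Transcript estimates showed how the TPM of each gene was divided among its annotated transcripts, not all of which have a complete coding frame. Of the 10 genes, 9 had the same leading transcript by TPM in both libraries. Txn1, Nfe2l2, Gclc and Hmox1 came almost wholly from 1 transcript, with Txn1-201 the only one and the leading transcript at 94.1% ± 0.580 for Nfe2l2, 98.2% ± 2.52 for Gclc and 97.3% ± 3.83 for Hmox1. The exception to a stable lead was Txnip, where Txnip-201 and Txnip-202 were nearly level. The former was at 41.5% and 38.6% and the latter at 39.3% and 38.6%. Txnip-204, a processed transcript with no annotated coding frame, held 18.4% and 21.4%, which is part of the Txnip level given above.

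Among the selenoproteins, nearly all Txnrd1 and Gpx4 message carried the TGA codon shown above, at 91.3% and 92.2% of TPM for Txnrd1 and 98.9% and 98.1% for Gpx4. In Gpx1 only the transcript Gpx1-201 carried it, at 46.4% and 46.0% of TPM. The shorter annotated transcripts Gpx1-204 and Gpx1-202, at 39.1% ± 1.12 and 14.5% ± 0.827, have coding frames of 146 and 145 codons without the TGA. By reads rather than TPM the Gpx1-201 share was 57.9% and 57.6%. These shares are estimates from reads of 50 bases, and full-length molecules were not seen.

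Gpx4 has mitochondrial, cytosolic and sperm nuclear forms of the protein, and its annotated transcripts differ in their starts and frames. Which form each transcript gives was not tested. The transcript Gpx4-207, which starts at base 80054465 and has a frame of 158 codons, held 73.7% ± 2.01 of TPM. Gpx4-202, which starts upstream at base 80053488 and has a frame of 198 codons, held 24.8% ± 2.56. Gpx4-201, which starts at base 80054037 and has a frame of 254 codons, had 0 reads in both libraries. The TGA is codon 33, 73 and 129 of these frames, in the same order, since the frames differ at their start and share their end.

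Txnrd1 message was divided between Txnrd1-201, starting at base 82859179, and Txnrd1-206, starting at base 82860301. The first held 56.4% of TPM in library 1 and 69.3% in library 2 (62.9% ± 9.18), and the second 32.9% and 19.9% (26.4% ± 9.16), from 299.86 and 157.71 reads. Both encode the same frame length of 500 codons, and the longer Txnrd1-205, with 614 codons, held 2.51% ± 0.573. The shift between the libraries was not tested, since the estimates of overlapping transcripts are not independent counts. Prdx1 was spread over 4 transcripts, led by Prdx1-201 at 42.1% ± 1.09 of TPM, although Prdx1-204, with its long tail, took the most reads, 3235.11 and 2863.19. The annotated frame of Prdx1-201, of 176 codons, ends in GGC and not in a stop. That of Prdx1-205, at 13.3% ± 1.12 of TPM, ends in CAT. Gclm-203, a short transcript of 1088 bases, led by TPM at 63.9% ± 8.46 from 35.37 and 55.35 reads. No frame length was obtained for Gclm-203. The long Gclm-201 had 45.12 and 89.05 reads and 17.1% ± 0.544 of TPM.

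**Figure D3:**
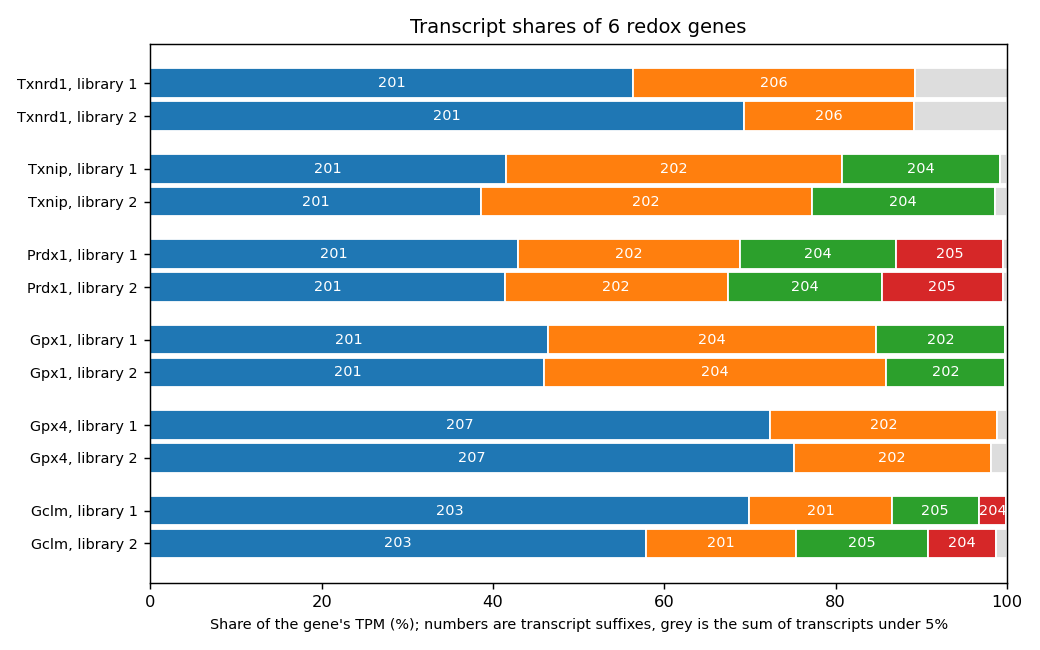
Share of each gene's TPM held by its transcripts, in percent, for 6 of the genes, 1 bar per library. Txnrd1-201 held 56.4% in library 1 and 69.3% in library 2, and the leading transcripts of Txnip are nearly equal.

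A further deposited table gives whole-number counts per gene on GENCODE M4, and it ranked the members differently. Txnip led with 1523 and 1530 counts, ahead of Gpx1 with 1108 and 1091, Nfe2l2 with 650 and 581, and Prdx1 with 573 and 583. These counts are not divided by length. As a percentage of the estimated reads of the same gene, the median over all genes of 100 or more reads was 40.1% in library 1 and 40.2% in library 2. Nfe2l2 was above it at 64.2% and 64.6% and Hmox1 at 60.6% and 51.4%, and Prdx1 and Gpx4 were far below it at 7.66% and 8.71%, and at 7.62% and 8.41%.

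Deep genes had lower percentages in general, with medians of 28.9% and 30.2% among genes of 2000 to 10000 reads. Within that band Prdx1 was at percentile 14.2 and 15.1 and Gpx4 at 14.1 and 14.4, against 43.1 and 42.2 for Gpx1 and 35.6 and 35.7 for Txnip. Of the 50-base windows over all transcripts of a gene, 34.7% for Gpx4, 15.7% for Txnip, 8.81% for Prdx1, 4.58% for Gclm and 2.50% for Txn1 occur in transcripts of other genes, against 0 for Gpx1, Nfe2l2, Txnrd1, Gclc and Hmox1. Within Prdx1 the share was 39.9% for Prdx1-201 and 10.9% for Prdx1-204, and it was 78.4% for Gpx4-207 and 18.5% for Txnip-201. Txnip shared its windows with the antisense gene Gm15441 and not with pseudogene copies, so its share is not like for like with those of Prdx1 and Gpx4. Among the copies of Prdx1 are the processed pseudogenes Gm21399, with 50.8 and 46.28 reads, and Gm7204, with 18.08 and 12.73 reads. How that table treats shared reads was not stated in the labels, and the part of shared sequence in the low percentages was not tested. Prdx1 and Gpx4 levels are uncertain to the extent that reads are split with these copies.

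**Figure D4:**
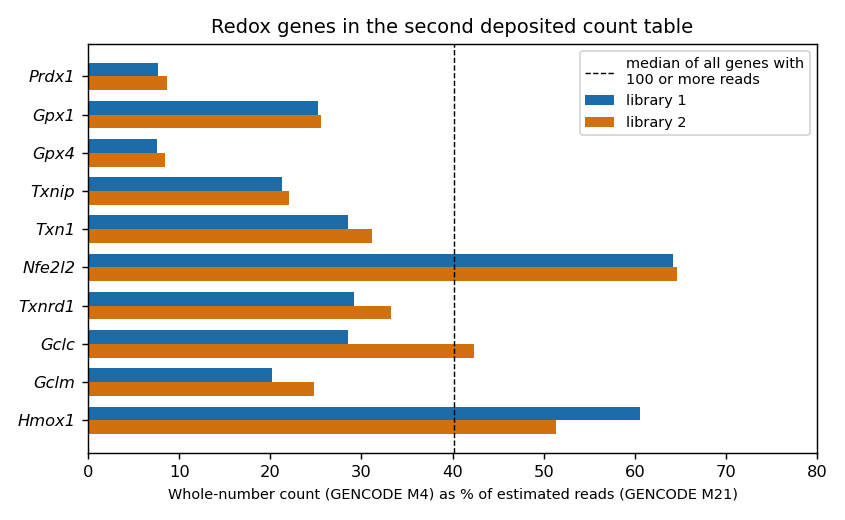
Whole-number count as a percentage of the estimated reads for each of the 10 genes, 1 bar per library from 0, with the median of all genes of 100 or more reads dashed. Nfe2l2 at 64.2% and 64.6% and Hmox1 at 60.6% and 51.4% lie above the line in both libraries, Gclc does so in library 2 only, and Prdx1 and Gpx4 have the shortest bars, from 7.62% to 8.71%.

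The members were then placed within 14 lists of 130 redox genes, 120 of them no members. Of the 130 genes, 100 were at 1 TPM or more in both libraries, 72 at 10 or more and 27 at 100 or more, which as a median log2(TPM + 1) gave 3.88 against 0.67 over all protein-coding genes. Between the libraries 30 of 109 tested genes passed the exact binomial test (27.5%), 20 higher in library 2 and 10 higher in library 1, against 28.4% of protein-coding genes tested. With edgeR at a dispersion of 0.01 the count was 5, and 11 in whole-number counts. Counts that passed in single lists, given below, are to be read beside the share of 28.4%.

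Of the 15 genes of glutathione synthesis and recycling 10 were above 1 TPM and none reached 100 TPM in both libraries, with a median log2(TPM + 1) of 2.78 and Gclc and Gclm in the middle of the list. Slc3a2, the heavy chain of several amino acid exchangers, led at 48.0 ± 3.39 TPM, followed by Ggct, which degrades gamma-glutamyl peptides, at 24.0 ± 2.00 TPM and the glutathione exporter Abcc1 at 14.5 ± 3.72 TPM. Slc7a11, the light chain that brings in cystine, was at 0.120 and 0.270 TPM, far below its partner chain. Gss, which completes glutathione after Gclc and Gclm, was at 12.0 ± 2.13 TPM, and Gsr, which reduces oxidised glutathione, at 8.02 ± 0.771 TPM. Chac1 was lowest, at 0.05 and 0 TPM. Gclm and Abcc1 were the 2 of 11 tested genes that passed the exact binomial test, both higher in library 2.

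Gpx1 and Gpx4 carried nearly all glutathione peroxidase message. Gpx7 came next at 1.30 and 3.85 TPM, Gpx3 was at 0.665 ± 0.233 TPM, and no read fell on Gpx8, which at a limit of 3 reads allows 0.282 TPM in library 1 and 0.299 TPM in library 2. Gpx7 was the 1 of 4 tested that passed. All 4 genes of the glutaredoxin list were expressed, and none passed between the libraries. Glrx was at 270 ± 7.50 TPM, Glrx3 at 102 ± 3.07 TPM, and Glrx2 at 38.6 ± 2.92 TPM. Glrx5 was the lowest at 4.60 ± 0.410 TPM. Among 18 glutathione transferases 11 were above 1 TPM, led by Gstp1 at 388 ± 34.5 TPM, Gstp3 at 149 ± 4.92 TPM and Mgst2 at 123 ± 1.20 TPM, while Gstm2 and Mgst1 had no reads. Gstp1 and Gstt3 passed the test, 2 of 13, both higher in library 2. The Gstp genes are paralogs, and whether reads were split among them was not tested.

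Prdx1 headed a list in which all 7 genes were expressed, with Prdx2 at 223 ± 18.3 TPM, Prdx6 at 222 ± 6.64 TPM and Prdx5 at 186 ± 2.33 TPM. Srxn1, sulfiredoxin, which restores over-oxidised peroxiredoxins, was the lowest at 1.09 ± 0.0707 TPM. Prdx1, Prdx2 and Prdx3, 3 of 7 tested, passed the exact binomial test, each higher in library 1. Their log2 ratios were -0.12, -0.27 and -0.21, with adjusted p-values of 2.31e-05, 7.08e-08 and 0.000505 by that test. All 3 had over 1000 summed reads, a depth at which 39.5% of all genes passed. The Prdx1 call was lost in edgeR at a dispersion of 0.01, and its direction turned in whole-number counts. Superoxide dismutase 1, a source of the peroxide these enzymes remove, was above every member at 1019 ± 2.98 TPM. Cat, catalase, was at 80.2 ± 1.83 TPM and the mitochondrial Sod2 at 49.2 ± 2.81 TPM, while the extracellular Sod3 was at 0.01 ± 0.0141 TPM, and none of the 3 tested passed. In the thioredoxin list Txnip, Txn2 and Txn1 were the 3 highest of 9 and Txnrd3 the lowest at 0.520 ± 0.297 TPM, and Txn1 alone passed the test. The alpha-arrestin and MLX list had 6 of 8 genes above 1 TPM, Arrdc5 with no reads, and Arrdc4 as the 1 gene that passed, higher in library 2.

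Among NRF2 and its 12 regulators and relatives, the ubiquitin ligase subunits Rbx1 and Cul3 were at 276 ± 2.28 and 38.0 ± 1.12 TPM. Sqstm1, which displaces NRF2 from KEAP1 and is itself an NRF2 target, was at 39.1 TPM in library 1 and 53.2 TPM in library 2. The Hmox1 repressor Bach1 was at 1.76 and 3.31 TPM and the lymphoid repressor Bach2 at 13.0 and 8.38 TPM. Mafg, a DNA-binding partner, was at 8.46 ± 0.523 TPM. Sqstm1, Bach1 and Mafg were higher in library 2 by log2 ratios of 0.42, 0.94 and 0.35 (adjusted p-values of 1.35e-07, 3.22e-05 and 0.00554, exact binomial test). Nfe2, at 0.910 and 0.150 TPM, was the 1 gene of the 13 that passed the test with the higher level in library 1. Thus the repressor Bach1 and its target Hmox1 were both higher in library 2.

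The NADPH that both chains consume comes largely from the pentose phosphate pathway, and its listed enzymes were above Txnrd1 and Gsr. Pgd and G6pdx, whose steps form the NADPH, were at 35.8 ± 3.59 and 28.0 ± 0.608 TPM. Taldo1 at 320 ± 1.25 TPM and Tkt at 136 and 190 TPM act in the branch that forms none. Idh1 was at 10.3 TPM in both libraries, below Txnrd1. No read fell on the cytosolic malic enzyme Me1 (limits of 0.126 and 0.133 TPM). Nqo1, a widely used NRF2 target, was at 3.16 and 2.05 TPM and lay with Hmox1 and Gclm at the low end. Osgin1, another NRF2-responsive gene, was at 6.07 and 11.4 TPM. Tkt, Pgd and Osgin1 passed the exact binomial test, all 3 higher in library 2. In the heme and iron list the ferritin chains Fth1 and Ftl1 were the highest genes of all lists, at 1444 ± 81.5 and 1193 ± 54.4 TPM. Hmox1 was next to the lowest there, above the iron exporter Slc40a1 at 0.790 and 0.740 TPM. Fth1, Ftl1, Hmox1 and Slc40a1 passed the exact binomial test on reads, 4 of 7, each higher in library 2, although the TPM of Slc40a1 was not.

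Selenocysteine in Txnrd1, Gpx1 and Gpx4 requires a dedicated set of enzymes and recoding factors. All 7 genes of that list were above 1 TPM, from Trnau1ap at 30.3 ± 4.40 TPM, Secisbp2, which binds the recoding element, at 26.6 ± 4.00 TPM and Pstk at 26.1 ± 5.40 TPM down to Sepsecs at 3.97 ± 0.926 TPM. Trnau1ap was higher in library 2, and Pstk and Sephs1 were higher in library 1. Of 12 other selenoproteins 11 were above 1 TPM, led by Selenow at 643 ± 27.3 TPM, whose library range overlapped that of Prdx1, then Selenok at 279 ± 14.7 TPM and Selenof at 223 ± 6.65 TPM, with Selenon lowest at 0 and 0.170 TPM. Selenof and Selenoi, 2 of 11 tested, passed the exact binomial test, both higher in library 1.

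Genes that act beside Gpx4 in lipid peroxidation and ferroptosis were of middle level, with 7 of 10 above 1 TPM and none at 100 TPM. Ncoa4, which delivers ferritin for breakdown, was at 72.3 ± 0.240 TPM, Acsl4, which loads membranes with oxidisable fatty acids, at 35.8 ± 4.39 TPM, and Dhodh at 23.7 ± 2.50 TPM. Aifm2, which encodes the ferroptosis suppressor FSP1, was at 2.31 and 3.35 TPM, far under Gpx4. The lipoxygenases Alox5, Alox12 and Alox15 were each under 1 TPM, Alox5 the lowest at 0.05 and 0 TPM. Lpcat3, Tfrc and Aifm2 were higher in library 2 and Acsl4 higher in library 1 by the exact binomial test.

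**Figure D5:**
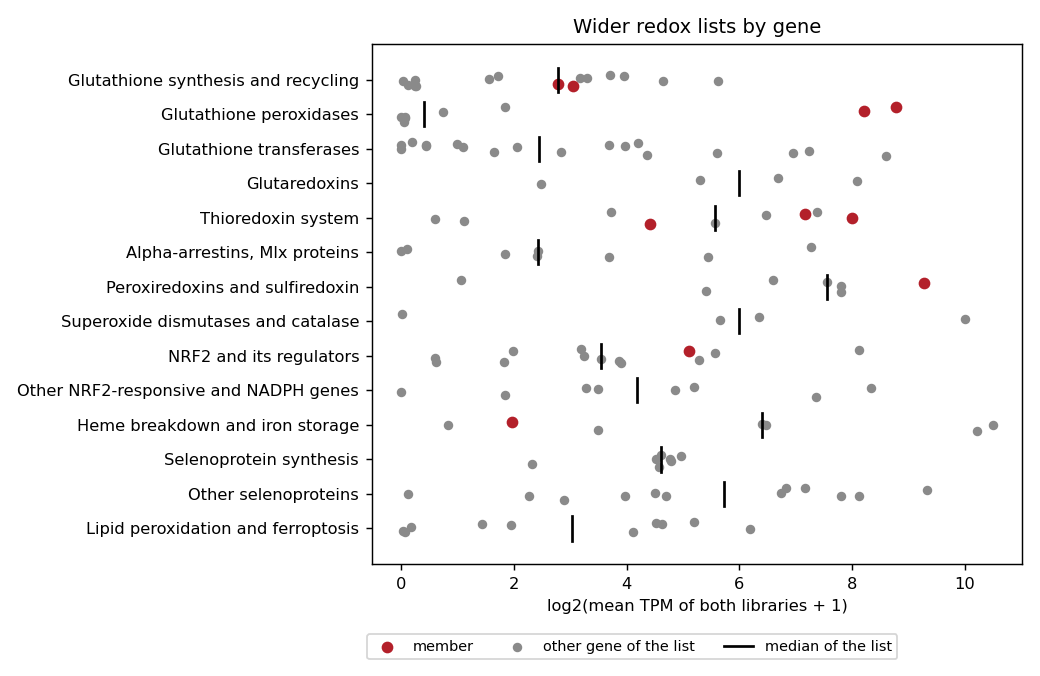
Mean level of each gene in the 14 lists as log2(TPM + 1), with members in red, other genes in grey and a black tick at each list's median. Gpx1 and Gpx4 stand apart from the other glutathione peroxidases, Prdx1 heads its list, and Hmox1 lies below the median of its own.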

How the data were processed

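The deposited gene and transcript tables of both libraries hold an expected count (an estimate that need not be whole), TPM, FPKM, effective length and, for transcripts, an isoform percent, per the file headers. Their build is mm10 with GENCODE M21, per the labels' file listing. A deposited whole-number count table uses GENCODE M4, with 22195 identifiers matched. Quantifier, aligner, counter and strandedness were not given in the sources used here.

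Expected counts were rounded, and rows that name no gene did not enter library sizes. Genes with a summed count of 10 or more were compared by a binomial test, exact and two-sided, with p-values adjusted by the Benjamini-Hochberg method (threshold 0.05, scipy 1.17.1), which was checked on simulated data. Log2 ratios added 0.5 to each count. Levels were TPM as deposited. Alternatives used edgeR 4.0.16 (TMM, and its exact test with dispersion set to 0.01) and DESeq2 1.42.0 size factors, in R 4.3.3, no filter, the whole-number counts, other length scales and either library alone. Intervals cover counting error only. Binomial p-values likewise allow for counting error alone, and those of edgeR add a dispersion that was set and not estimated. With 2 technical libraries, no p-value covers differences between animals.

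Text names all members, at least the 3 highest and the lowest gene of each list, and partners, paralogs or regulators of members. Members and lists were chosen with earlier results of these data known.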

Additional observations from a re-analysis of the deposited data

How the results depend on the processing

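The count of members past the exact binomial test was 4, with the same genes, under TMM, DESeq2 size factors and no filter on low counts. It was 2 with edgeR at a dispersion of 0.01 (Gclm and Hmox1) and 2 in whole-number counts (Gclc and Gclm). Of all genes tested, 2.85% of 17271 passed with that edgeR setting and 9.95% of 10978 in whole-number counts. With no filter 12.4% of 29872 passed. The count over the 130 list genes, 30, became 5 with edgeR and 11 in whole-number counts. Prdx1 turned from a log2 ratio of -0.12 to 0.03 in whole-number counts. Fewer reads are counted in that table; the cause was not tested. Taking either library alone leaves no test between libraries. Reads per kilobase of exons are another unit than TPM, so that 9 of 10 levels moved by more than their SD decides nothing. Ratios and order can be compared between the scales. By more than their SD, 10 of 13 ratios between genes moved, and 6 of 9 neighbouring pairs in the order of levels kept their order. No paired analysis was possible because the libraries form 1 group. Depth limits Hmox1 and Gclm, with 33 to 157 reads each, and differences between animals cannot be judged from 1 biological sample.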
